A study of Mus musculus with 6 samples.

Results

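The retinoic acid pathway was followed through the mouse main olfactory epithelium with 9 genes chosen by symbol, among 24564 genes measured by single-cell RNA-seq in 6 libraries. They were the retinaldehyde dehydrogenases *Aldh1a1*, *Aldh1a2* and *Aldh1a3*, the binding proteins *Crabp1* and *Crabp2*, the degrading enzyme *Cyp26b1* and the receptors *Rara*, *Rarb* and *Rxra*. Another 41 retinoid genes served as a wider list. The study asked how HP1 proteins act on olfactory receptor choice, and its swap mice carry a *Cbx1* allele from which Cre removes the HP1β coding sequence, so that HP1α is made under the *Cbx1* promoter. The libraries were 2 of swap mice (Cbx*/* with Cre), 2 of control mice, 1 of gg8-tTA; tetOP2iresGFP (tetOP2) and 1 of gg8-tTA alone (gg8tTA). Control replicate 1 was labelled WT with Cre and control replicate 2 Cbx*/* without it, so neither allele nor Cre was held constant among the controls. Cre came from an allele that the study uses as specific to neuronal lineages, and gg8-tTA is a transactivator that drives the *P2* receptor transgene in the tetOP2 mouse. Ages were not given in the sources used here, and nothing stated that a library was pooled.

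Retinoic acid is made from retinaldehyde by the ALDH1A enzymes, is carried in the cytoplasm by CRABP proteins and is broken down by CYP26 enzymes, so that neighbouring cells can see very different amounts of it. In the nucleus it binds retinoic acid receptors (RAR), which act on DNA as pairs with retinoid X receptors (RXR). In the nose the pathway is known from the induction of the olfactory placode and from the maintenance of olfactory progenitors.

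The cell type label read OSN and the series text spoke of sorted cells, yet the gates found many other classes. Cells were assigned by marker genes, which gave 5665 mature olfactory sensory neurons (OSNs), 4168 immature OSNs, 591 immediate neuronal precursors (INPs), 134 globose basal cells (GBCs), 969 horizontal basal cells (HBCs) and 3586 sustentacular cells, the support cells of the epithelium. The libraries held 32005196 to 63277934 UMIs (unique molecular identifiers, 1 per captured RNA molecule), and the median cell had 9991 to 11543. Any pair of libraries shared at most 13 cell barcodes. Levels are given in CPM, the UMIs of a gene per 1000000 UMIs summed over the cells of a class in a library. In mature OSNs *Cbx1* stood at 1.05 and 3.28 CPM in the swap libraries against 79.9 and 154 in control. *Cbx5*, which encodes HP1α, stood at 72.9 and 88.7 CPM against 19.6 and 28.6. Both genes followed the labels. In sustentacular cells *Cbx1* stood at 0.595 and 1.41 CPM against 64.8 and 45.9, so its loss was seen in these support cells too. *Cbx5* stood there at 148 and 186 CPM in swap against 92.9 and 143 in control, groups that nearly met. The tetOP2 and gg8tTA libraries stood apart in the 6 sustentacular markers read in mature OSNs, with 421 and 416 CPM against 70.9 to 111 CPM in the other libraries, while their mature OSN markers read in sustentacular cells, at 664 and 650 CPM, lay within the 135 to 1482 CPM of the others.

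The members differed in the classes where they were highest, though some shared a leading class. The 17 cell classes with 20 cells or more in at least 3 libraries were ranked by mean CPM. The highest means of the 9 genes fell in 7 different classes (the heat map of levels by class). HBCs led for *Aldh1a3* and *Cyp26b1*, and respiratory ciliated cells for *Aldh1a1* and *Rara*. For *Aldh1a3*, *Cyp26b1*, *Crabp1*, *Crabp2* and *Rxra* the leading class overlapped another in range, so these leads are not settled. These levels are descriptions, and classes next to each other in the order are said not to differ where their ranges over libraries overlapped.

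**Figure D1:**
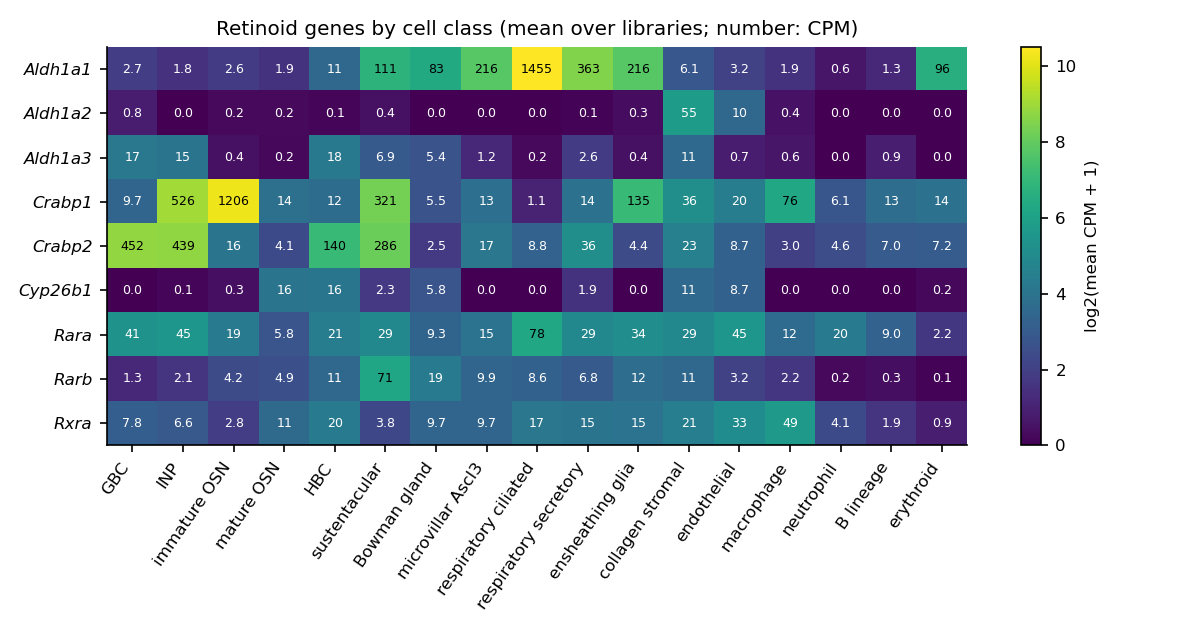
Heat map of the 9 retinoid genes (rows) over 17 cell classes (columns), coloured by log2 of the mean CPM over libraries plus 1, with the mean CPM printed in each cell. *Crabp1* is brightest in immature OSNs at 1206 CPM, *Crabp2* in GBCs and INPs at 452 and 439 CPM, and *Rarb* in sustentacular cells at 71.3 CPM.

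Among the enzymes that make retinoic acid, *Aldh1a1* was highest in respiratory ciliated cells, with 1455 ± 553 CPM (SD, n = 3 libraries) and a range of 986 to 2065 CPM that did not overlap that of any other class. Respiratory secretory cells followed with 363 CPM, and *Ascl3* microvillar cells and olfactory ensheathing glia, the glia that wrap olfactory axons, each with 216 CPM. These ranges overlapped, so their order is not settled. In sustentacular cells *Aldh1a1* stood at 69.9 and 90.7 CPM in swap, 70.0 and 99.1 in control, 147 in tetOP2 and 192 in gg8tTA, so that the last pair of libraries was higher than the other 4. In the erythroid class it stood at 95.8 ± 31.5 CPM (SD, n = 6). *Aldh1a7*, a near-identical mouse copy of *Aldh1a1*, was highest in sustentacular cells with 264 CPM, and how reads shared by the copies were counted is not known, which leaves the *Aldh1a1* level there uncertain.

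*Aldh1a2*, the enzyme of embryonic mesenchyme, was a stromal gene. Among the 17 ranked classes it was highest in the class gated by collagen genes. It stood there at 36.3 and 80.0 CPM in swap, 35.5 and 110 in control, 33.5 in tetOP2 and 34.6 in gg8tTA. Endothelial cells had 10.3 CPM and no range overlap with that class. In the neuron lineage it was almost absent, with 10 UMIs in the 5665 mature OSNs and 0 UMIs in the 591 INPs, which allows up to 0.354 CPM. The collagen class was led by bone genes such as *Bglap* (osteocalcin) as well as *Col1a1*, and splitting it at 3 *Bglap* UMIs, a step chosen after seeing the data, placed 480 of the *Aldh1a2* UMIs in 367 cells below that number and 33 in 539 cells at or above it. By library this was 90.0 to 465 CPM against 0 to 7.72 CPM. The small pericyte gate, led by smooth muscle genes such as *Acta2* and *Myh11*, had too few cells in each library to be ranked. It held 136 *Aldh1a2* UMIs in 70 cells over all libraries, or 277 CPM (95% exact Poisson interval 232 to 327, counting error only). Pooled in the same way, the collagen class had 40.5 CPM.

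*Aldh1a3* was low throughout, with its highest means in the progenitors of the epithelium and stromal cells close behind. It stood at a mean of 18.1 CPM in HBCs (n = 6 libraries), the reserve stem cells, 17.5 in GBCs (n = 3) and 15.5 in INPs (n = 6), with ranges that overlapped. Over the GBC sums of all 6 libraries, from 10 cells or more each, the GBC mean was 12.4 CPM. In HBCs the lowest, median and highest libraries were at 6.36, 16.2 and 33.3 CPM. The collagen class came next with 11.0 ± 5.87 CPM (SD, n = 6) and up to 19.0 CPM, a range that overlapped all 3. After thinning every cell to 3000 UMIs an *Aldh1a3* UMI was held in the median library by 5.09% of the collagen class, against 4.30% of HBCs, 3.23% of GBCs and 1.42% of INPs. The 70 cells of the pericyte gate held 9 UMIs, or 18.3 CPM (95% exact Poisson interval 8.37 to 34.8). OSNs had nearly none, with means of 0.387 CPM in immature and 0.168 CPM in mature OSNs.

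Both binding proteins were abundant at early stages of the neuron lineage and in sustentacular cells. *Crabp1*, often linked to the metabolism of retinoic acid, stood in immature OSNs at 590 and 1191 CPM in swap, 827 and 1637 in control, 1662 in tetOP2 and 1329 in gg8tTA. INPs were next with a mean of 526 CPM and a range of 207 to 1075 CPM. That range overlapped immature OSNs, so the order of these stages is not settled. Sustentacular cells had 321 ± 74.8 CPM (SD, n = 6). Per 1000 UMIs of *Gap43*, a marker of immature OSNs, sustentacular cells had 8681 to 18537 *Crabp1* UMIs and immature OSNs 283 to 912. Mature OSNs ranged from 2.56 to 31.7 CPM. The macrophage class had 350 CPM in tetOP2 and a median of 8.32 CPM over 5 libraries, so that 1 library set its mean.

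*Crabp2*, which hands retinoic acid to the receptors, was a progenitor and support cell gene. GBCs stood at 452 ± 59.9 CPM (SD, n = 3) and INPs at 439 ± 131 CPM (SD, n = 6), with overlapping ranges. Sustentacular cells had 202 to 365 CPM, above the 82.9 to 183 CPM of HBCs with no overlap. After thinning to 3000 UMIs, 47.5% to 64.7% of sustentacular cells still held a *Crabp2* UMI, against 0.20% to 2.33% of mature OSNs, a class with 0.640 to 11.2 CPM. The cells left out as too shallow differed by library, with 139 of 843 sustentacular cells in control replicate 1 and 0 of 434 in tetOP2. Without thinning the shares were 79.9% to 96.5% and 0.656% to 8.55%.

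*Cyp26b1*, which hydroxylates retinoic acid for removal, was found in HBCs, in mature OSNs and in stromal cells, and hardly in the stages between HBCs and mature OSNs. HBCs had 13.8 and 21.9 CPM in swap, 16.7 and 18.0 in control, 8.52 in tetOP2 and 15.7 in gg8tTA. Mature OSNs had 18.5 and 17.1 CPM in swap, 16.0 and 19.5 in control, 10.9 in tetOP2 and 11.9 in gg8tTA. The ranges of both classes overlapped, with means of 15.8 and 15.6 CPM. The collagen class followed with 5.17 to 15.2 CPM and endothelial cells with 2.16 to 14.4 CPM, both overlapping mature OSNs. The pericyte gate held 12 UMIs in 70 cells, or 24.4 CPM (95% exact Poisson interval 12.6 to 42.6). No UMI was seen in the 134 GBCs, which allows up to 0.871 CPM, and 1 in the 591 INPs.

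The receptors were spread more widely. *Rara* was found in every class, from 2.23 CPM in the erythroid class to 78.4 ± 7.20 CPM (SD, n = 3) in respiratory ciliated cells, whose range did not overlap that of INPs at 40.2 to 53.9 CPM. *Rxra*, the partner receptor, led in macrophages with 48.8 CPM and in endothelial cells with 33.1 CPM, and sustentacular cells were among its lowest classes at 3.84 ± 1.09 CPM (SD, n = 6).

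*Rarb* was highest in sustentacular cells. It stood there at 64.1 and 81.9 CPM in swap, 83.3 and 74.4 in control, 55.4 in tetOP2 and 68.9 in gg8tTA. Every library was above the highest value of the next class, Bowman gland cells, which ran from 13.5 to 23.7 CPM. After thinning, 13.8% to 23.1% of sustentacular cells held a *Rarb* UMI against 0.30% to 2.49% of mature OSNs, and without thinning 49.5% to 63.5% against 3.47% to 7.62%. The median depth was 11788 to 18602 UMIs in sustentacular cells and 11272 to 12424 in mature OSNs. Mature OSNs had 65.0 to 337 *Rarb* UMIs per 1000 *Cyp2g1* UMIs (a sustentacular marker) against 4.74 to 9.83 in sustentacular cells.

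*Rarb* is itself known as a target of retinoic acid through a direct repeat in its promoter, and its sequence is shown because it was the 1 member whose start region held such a repeat. RefSeq windows from 250 bases before to 50 after the start (GRCm38.p6) were at hand for 7 of the 9 members and 31 of the 41 wider genes. They were searched on both strands for 2 motifs of 6 bases in the same direction, each AGGTCA or AGTTCA or GGTTCA or GGGTCA, set 1, 2 or 5 bases apart. A spacer of 5 was found in 0.0974% of 32851 windows, of 2 in 0.268% and of 1 in 0.222%. The motifs are in capitals.
Rarb (chr14:16575513-16575529, minus strand, 53 bases before the start): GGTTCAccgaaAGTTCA
Cyp26a1 (chr19:37697776-37697792, minus strand, 32 bases before the start): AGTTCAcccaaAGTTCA
Both have a spacer of 5 bases. *Cyp26a1*, of the wider list and another degrading enzyme, shared the repeat but not the cell class of *Rarb*, with 10.9 CPM in HBCs, its leading class, and 0.0261 CPM in sustentacular cells. The other match of the wider list was a spacer of 1 at *Bco1*. A match is a description of letters in these windows.

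For likeness over the 17 class means, Pearson's r of log2(CPM + 10) was taken against 12246 genes at 20 CPM or more in some class, as a description in which all points come from the same libraries. *Aldh1a2* was closest to *Adamts2*, *Tfap2b* and *Prrx1* (each r = 0.998), and *Rarb* to *Tsku* (0.922), *Ttc38* (0.900) and *Gm11744* (0.894). *Crabp1* was closest to *Gng8* (0.881), itself a marker in the gate of immature OSNs, then to *Lppr2* (0.828) and *Gdf11* (0.826), and *Crabp2* to *Bmpr1b* (0.969), *Hmga2* (0.929) and *Tox* (0.881). *Rxra* was closest to *Rnase4* (0.891), *Rhob* (0.879) and *Pald1* (0.863). *Rara* (*Smurf2* 0.834, *Acot7* 0.832, *Nthl1* 0.792) and *Aldh1a1* (*4930415O20Rik* 0.857, *Enpp5* 0.850, *Tmem125* 0.823) had looser matches. *Aldh1a3* and *Cyp26b1* stayed under 20 CPM in every class and were not compared.

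Along the neuron lineage, GBCs divide and give INPs, which become immature and then mature OSNs. The members were spread over its stages (the plot of levels by stage). *Crabp2* and *Aldh1a3* were highest in the precursors and *Crabp1* in INPs and immature OSNs, *Cyp26b1* and *Rxra* rose in mature OSNs, and *Rara* fell at each step from INPs onward. Adjacent stages were compared within libraries by edgeR's quasi-likelihood test on UMIs summed per library and stage, adjusted over 13411 genes. A gene was called at an adjusted p under 0.05 and an absolute log2 fold change over 0.58. *Aldh1a2* had too few UMIs to be tested.

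**Figure D2:**
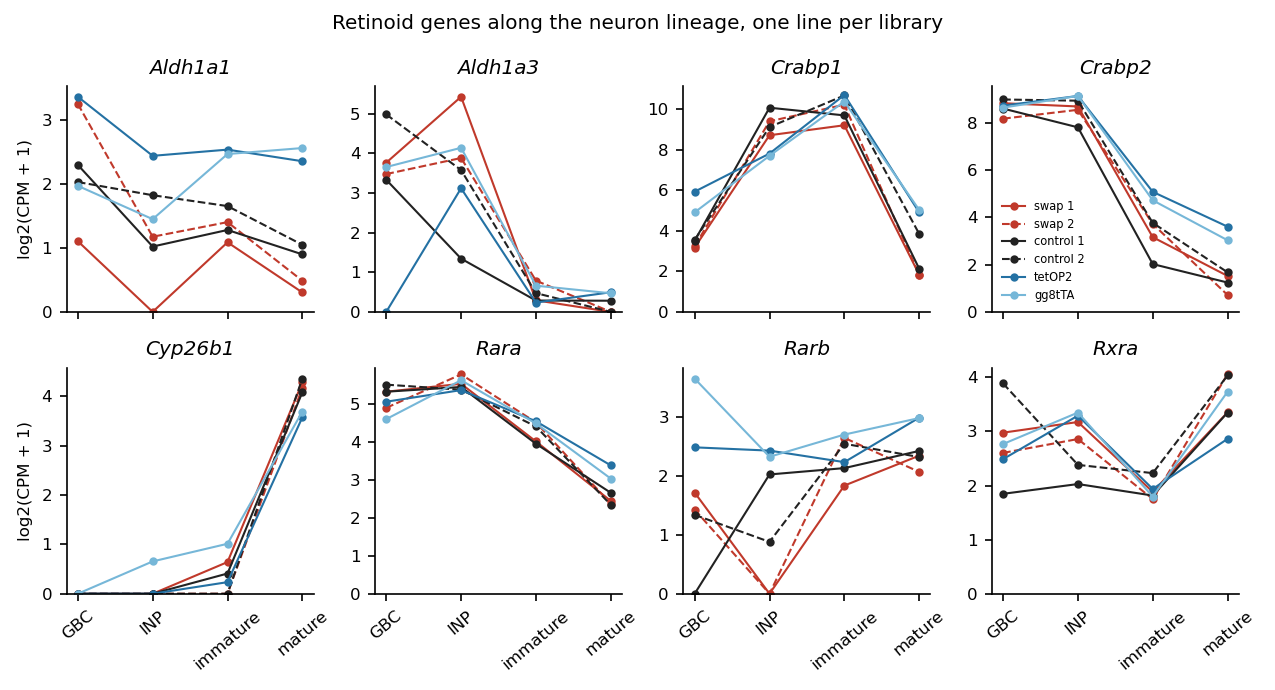
Levels of 8 retinoid genes in log2(CPM + 1) (vertical axes, each panel with its own scale) at the GBC, INP, immature and mature OSN stages, with 1 line for each of the 6 libraries. *Crabp2* drops after the INP stage and *Crabp1* after the immature stage in every library, and *Cyp26b1* is near 0 until the mature stage, where it reaches 10.9 to 19.5 CPM.

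From GBC to INP, 1 of 8 members tested was called, where 25.2% of all genes were. *Crabp1* had 8.03 and 8.47 CPM in the GBCs of swap, 10.4 and 10.7 in control, 60.0 in tetOP2 and 29.1 in gg8tTA. In INPs these were 419 and 675, 1075 and 555, 223 and 207 CPM, so that the stages did not overlap. *Crabp1* rose by 5.25 ± 0.75 on the log2 scale (SE, edgeR adjusted p = 1.868e-05, higher in 6 of 6 libraries). *Aldh1a1*, with 14 UMIs in GBCs and 17 in INPs over the 6 libraries, had a log2 fold change of -1.48 ± 0.58 that edgeR did not call (adjusted p = 0.0543), while DESeq2 did. The GBC sums came from only 10 to 35 cells a library. With edgeR 2081 of all genes were called higher and 1293 lower, and with DESeq2 1731 and 1679, the median of all genes being 0.11 and 0.00.

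From INP to immature OSN, 4 of 8 members were called, all lower, against 49.1% of all genes. *Crabp2* had 415 and 376 CPM in the INPs of swap, 224 and 491 in control, and 565 in both tetOP2 and gg8tTA. In immature OSNs it had 7.96 and 12.2, 3.07 and 12.6, 32.9 and 25.4 CPM. It fell by 5.01 ± 0.33 on the log2 scale (SE, edgeR adjusted p = 5.134e-11) in 6 of 6 libraries, with no overlap. *Aldh1a3* fell by 5.09 ± 0.74 from 42.2 and 13.8 CPM in swap, 1.54 and 11.0 in control, 7.70 in tetOP2 and 16.7 in gg8tTA to between 0.177 and 0.728 CPM. Control replicate 1 was its lowest INP library. The receptors fell less. *Rara* fell by 1.27 ± 0.16, from 40.2 to 53.9 CPM in INPs to 14.5 to 22.3 CPM in immature OSNs. *Rxra* fell by 1.31 ± 0.31 (edgeR adjusted p = 0.00117), from 3.08 to 9.20 CPM to 2.37 to 3.69 CPM, and was not called in the swap and control libraries alone, an alternative added after seeing the data, at -0.88 (adjusted p = 0.0594). *Crabp1* (1.03 ± 0.46, adjusted p = 0.0567) and *Rarb* (0.93 ± 0.49, adjusted p = 0.106) were not called, and without control replicate 1 both were, at 1.48 and 1.25.

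From immature to mature OSN, 5 of 8 members were called, 2 higher and 3 lower, against 41.9% of all genes. *Cyp26b1* rose by 5.53 ± 0.48 on the log2 scale (SE, edgeR adjusted p = 7.458e-08) from 0 to 1.02 CPM in immature OSNs to the levels given above for mature OSNs. *Rxra* rose by 2.16 ± 0.27 (edgeR adjusted p = 8.96e-07), to 9.23 and 15.7 CPM in swap, 9.20 and 15.4 in control, 6.28 in tetOP2 and 12.3 in gg8tTA. For both genes every mature sum was above every immature one. Among the members that fell, *Crabp1* fell by 6.50 ± 0.57 (edgeR adjusted p = 4.027e-09), to 2.57 and 2.56 CPM in swap, 3.38 and 13.4 in control, 29.1 in tetOP2 and 31.7 in gg8tTA. *Crabp2* fell by 1.90 ± 0.38 (edgeR adjusted p = 0.000224), to 0.640 to 11.2 CPM. *Rara* fell by 1.61 ± 0.16 (edgeR adjusted p = 3.114e-08), to 4.44 and 4.16 CPM in swap, 5.32 and 4.07 in control, 9.42 in tetOP2 and 7.19 in gg8tTA. The tetOP2 and gg8tTA libraries were the highest for *Crabp1*, *Crabp2* and *Rara* in mature OSNs. These cells also had the highest CPM of sustentacular markers there. *Crabp1* was higher there in other classes too, with 30.2 and 26.8 CPM in HBCs against 2.20 to 6.68 in swap and control. In the erythroid class it had 24.7 and 42.0 CPM against 3.69 to 6.02. In the collagen class tetOP2, at 21.3 CPM, lay within the 15.3 to 32.8 of swap and control. *Rara* in HBCs, at 15.5 and 27.4 CPM, overlapped the 13.4 to 22.8 of swap and control. The part of such library differences, or of the sustentacular markers, in the mature OSN levels was not tested. All 5 calls remained in the swap and control libraries alone. There *Aldh1a1*, at -0.63 ± 0.38 with all libraries, was called lower as well (-1.16, edgeR adjusted p = 0.0368).

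Of the wider list 23 genes could be tested along the lineage. At the 3 steps in turn 5, 9 and 7 of them were called, where 25.2%, 49.1% and 41.9% of all genes were. *Rarg*, another retinoic acid receptor, was called higher at all 3, by 2.17 ± 0.55, 1.48 ± 0.21 and 2.67 ± 0.13 on the log2 scale, from a mean of 2.51 CPM in GBCs through 8.64 in INPs and 26.6 in immature OSNs to 150 in mature OSNs. *Fabp5*, a lipid carrier that also binds retinoic acid, rose by 0.91 from GBC to INP and fell by 4.04 ± 0.16 from immature to mature OSN, with means of 431, 759, 542 and 30.1 CPM. *Dhrs3*, which turns retinaldehyde back to retinol, rose by 3.81 ± 0.26 at the last step, to 16.2 to 55.7 CPM. *Rdh14*, a retinol dehydrogenase, rose by 1.14 and 1.45 at the last 2 steps. *Rbp4*, the retinol carrier, had no UMI in GBCs and 2.87 to 17.5 CPM in INPs. The co-regulators went in different directions. *Ncoa1*, a coactivator, rose by 1.00 and 1.25 at the first 2 steps and *Nrip1*, which represses ligand-bound receptors, fell by 1.03 and 1.24. *Dhrs4* fell by 2.34 and *Rai14*, named for its induction by retinoic acid, by 3.65 from INP to immature OSN. Beyond the 5 smallest adjusted p-values of a step, *Rarg*, *Dhrs3* and *Stra6* were also called from INP to immature OSN, and *Rbp4* and *Rai14* from immature to mature OSN, named here after their values were seen.

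The swap was compared with control in mature OSNs, immature OSNs and sustentacular cells, 2 libraries against 2, to see whether the exchange of HP1 proteins went with a change in the pathway. No member was called in any of them by edgeR's quasi-likelihood test. In mature OSNs it called 0 of 7 members tested (*Aldh1a2* and *Aldh1a3* had too few UMIs) and 0% of 12515 genes. In immature OSNs it called 0 of 6 members (without *Cyp26b1* too) and 0.049% of 12235 genes, 2 higher and 4 lower (DESeq2 52 and 37), and in sustentacular cells 0 of 8 members (without *Aldh1a2*) and 0% of 12895 genes. At an unadjusted p under 0.05 there were 0, 0 and 1 members and 335, 267 and 155 genes, and DESeq2 called 0 members in each and 185, 89 and 38 genes. The design had little room: the exchanged gene *Cbx1*, with a log2 fold change of -5.71 in mature OSNs, reached an adjusted p of only 0.0927 (edgeR).

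**Figure D3:**
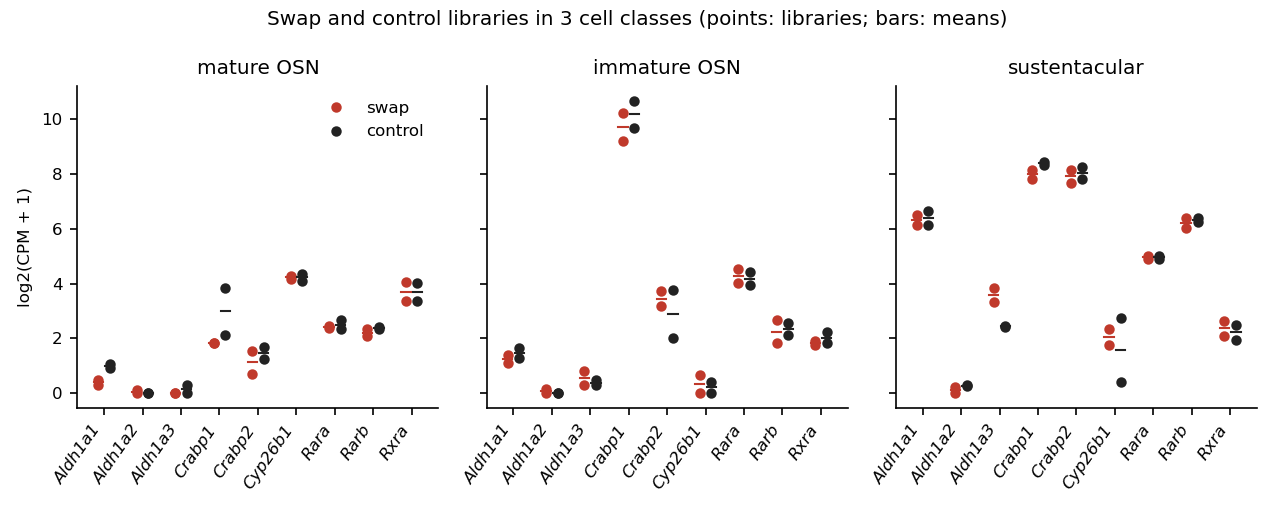
Levels of the 9 genes in log2(CPM + 1) (vertical axis) in the 2 swap and 2 control libraries (points, with short bars at the group means of the plotted values) for mature OSNs, immature OSNs and sustentacular cells. The groups overlap for *Cyp26b1*, *Rara*, *Rarb* and *Rxra* in mature OSNs, and are apart for *Aldh1a3* in sustentacular cells, at 13.4 and 9.08 CPM against 4.34 and 4.52 CPM.

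The member with the lowest unadjusted p in this comparison was *Aldh1a3* in sustentacular cells. It stood at 13.4 and 9.08 CPM in swap against 4.34 and 4.52 in control, 5.16 in tetOP2 and 4.73 in gg8tTA. The swap libraries were above the other 4. Its log2 fold change was 1.39 ± 0.38 (SE, edgeR adjusted p = 0.9999). In mature OSNs *Aldh1a1* stood at 0.234 and 0.40 CPM in swap against 0.862 and 1.06 in control (2, 5, 12 and 17 UMIs), with no overlap and a log2 fold change of -1.57 ± 0.65 (adjusted p = 1, edgeR). The sustentacular markers in the same cells stood at 73.9 and 70.9 CPM in swap and 87.8 and 111 in control, and their part in this difference was not tested. *Crabp1* stood at 2.57 and 2.56 CPM in swap against 3.38 and 13.4 in control (-1.71 ± 0.69, adjusted p = 1, edgeR), a difference that came to -0.47 without control replicate 2. In that library 30 of 1331 mature OSNs held 73.4% of the *Crabp1* UMIs.

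The remaining members of mature OSNs had groups that overlapped. *Crabp2* stood at 1.87 and 0.640 CPM in swap against 1.37 and 2.19 in control, a log2 fold change of -0.56 ± 0.65 (SE, edgeR). *Cyp26b1* differed by -0.03 ± 0.24 on the log2 scale, *Rxra* by 0.00 ± 0.42, *Rara* by -0.17 ± 0.35 and *Rarb* by -0.24 ± 0.34 (SE, edgeR). In immature OSNs the 6 members tested ran from -0.47 ± 0.43 for *Crabp1* to 0.39 ± 0.64 for *Crabp2*. In sustentacular cells *Rarb* differed by -0.09 ± 0.25, *Crabp2* by -0.09 ± 0.35, *Crabp1* by -0.35 ± 0.24, *Rara* by 0.03 ± 0.23 and *Aldh1a1* by -0.03 ± 0.25. The standard errors were as large as most of these differences, which does not show that the groups were alike. The median log2 fold change of the members was -0.24, -0.19 and 0.00 in the 3 classes against -0.02, -0.01 and 0.00 over all genes tested. Of the wider list 0 of 18, 0 of 17 and 0 of 23 genes were called, with 2, 0 and 0 at an unadjusted p under 0.05.

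*Nqo1* encodes a quinone reductase known to mark the OSNs of the dorsal epithelium, and mature OSNs were split within each library by 2 or more against 0 *Nqo1* UMIs. Positive cells made up 26.3% to 37.3% of mature OSNs. Of the 7 members tested 2 were called (edgeR, with library as a block), *Cyp26b1* higher and *Rara* lower in positive cells, where 8.42% of 12295 genes were. Median depth was 10793 to 11988 UMIs in positive and 11475 to 13030 in negative cells.

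**Figure D4:**
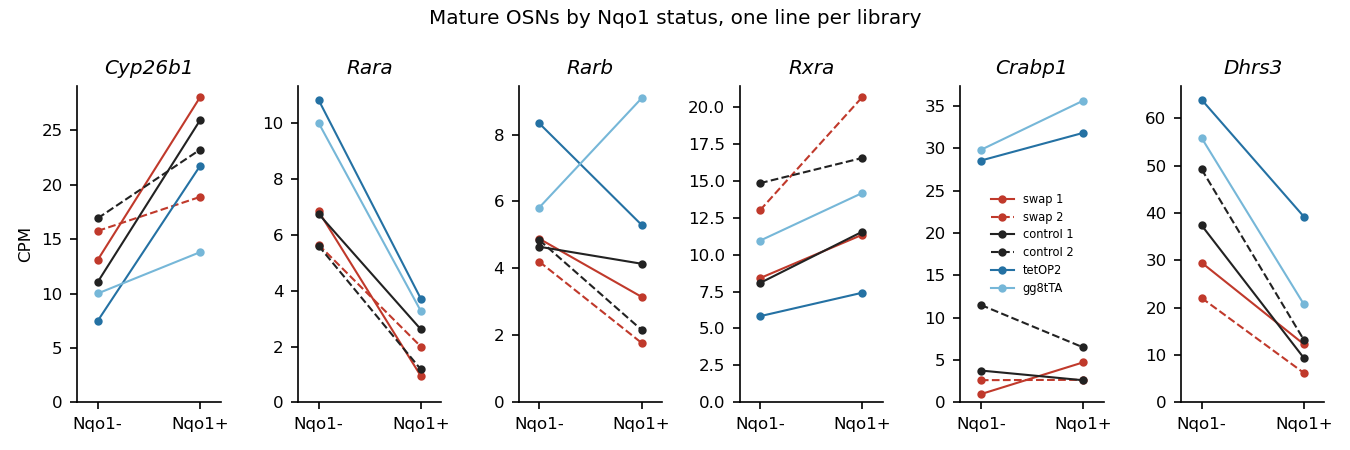
CPM of 5 members and of *Dhrs3* in *Nqo1*-negative and *Nqo1*-positive mature OSNs (horizontal axis), with 1 line for each of the 6 libraries and a separate vertical scale from 0 in each panel. The *Rara* and *Dhrs3* lines fall and the *Cyp26b1* and *Rxra* lines rise in all 6 libraries, and the *Rarb* line falls in 5.

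*Rara* had 0.945 CPM in positive and 6.84 in negative cells of swap replicate 1, and 2.00 and 5.65 in replicate 2. In control these were 2.62 and 6.75 CPM, then 1.18 and 5.61. In tetOP2 they were 3.71 and 10.8 CPM and in gg8tTA 3.27 and 10.0. Every positive sum was below every negative one. *Rara* was lower by 1.74 ± 0.21 on the log2 scale (SE, edgeR adjusted p = 0.000248), in 6 of 6 libraries, and was called under all 14 alternatives tried.

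*Cyp26b1* went the other way, with 28.0 CPM in positive and 13.1 in negative cells of swap replicate 1 and 18.9 and 15.8 in replicate 2. In control these were 25.9 and 11.1 CPM, then 23.2 and 16.9. In tetOP2 they were 21.7 and 7.50 CPM and in gg8tTA 13.8 and 10.0. Positive cells were higher in 6 of 6 libraries, though the groups overlapped across libraries. The log2 fold change was 0.83 ± 0.16 (SE, edgeR adjusted p = 0.00481). Among 14 alternatives the call was lost in 2, when cells were thinned to 3000 UMIs (0.43, adjusted p = 0.226) and when only cells with a class II receptor were used (0.36, adjusted p = 0.438).

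*Rxra* was higher in the positive cells of 6 of 6 libraries, with 11.3 against 8.41 and 20.7 against 13.0 CPM in swap, 11.6 against 8.08 and 16.5 against 14.8 in control, 7.42 against 5.83 in tetOP2 and 14.2 against 10.9 in gg8tTA. Its log2 fold change of 0.44 ± 0.11 (adjusted p = 0.0147, edgeR) was under the size needed for a call. *Rarb* was lower in 5 of 6 libraries (-0.46 ± 0.25, adjusted p = 0.290, edgeR). The other members tested, *Aldh1a1*, *Crabp1* and *Crabp2*, had log2 fold changes of 0.55 ± 0.42, 0.07 ± 0.26 and -0.08 ± 0.26. Of the wider list 1 of 20 genes was called, against 8.42% of all genes. This was *Dhrs3*, lower by 1.48 ± 0.16 (edgeR adjusted p = 8.716e-05). It had 12.3 against 29.5 and 6.22 against 22.1 CPM in swap, 9.37 against 37.4 and 13.2 against 49.2 in control, 39.2 against 64.0 in tetOP2 and 20.7 against 55.9 in gg8tTA.

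Whether the *Nqo1* difference itself differed between swap and control was tested as an interaction in the 8 sums of those libraries. Of the members 0 of 6 were called, with 0.316% of 11718 genes, 1 member at an unadjusted p under 0.05 (edgeR), and 0 members by DESeq2. For *Cyp26b1* the difference of differences was -0.17 ± 0.33 on the log2 scale and for *Rara* -0.26 ± 0.61 (SE).

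The *Cyp26b1* level of mature OSNs came from few cells, a pattern looked at after seeing the data and given as a description. Of 5665 mature OSNs 491 held a *Cyp26b1* UMI, and the 135 cells with 3 or more held 57.1% of its 1078 UMIs, up to 17 in a cell. For *Rxra* 707 cells held a UMI, of which 5 had 3 or more, with 2.02% of the UMIs. The variance over the mean of UMIs per cell was 3.67 for *Cyp26b1*, 1.09 for *Rxra*, 1.15 for *Rara* and 1.22 for *Rarb*. *Cyp26b1* was the most uneven of these 4, and a plain count at random over cells would give 1. The binding proteins had 3.46 for *Crabp2* and 2.53 for *Crabp1* over all libraries, but not evenly by library. Outside tetOP2, where a single cell held 23 of 82 UMIs, *Crabp2* ran from 0.95 to 1.24. *Crabp1* had 0.973 and 1.10 in swap. *Crabp2* was above *Cyp26b1* in tetOP2 (7.32 against 2.18) and *Crabp1* in control replicate 2 (4.72 against 3.55), but not in the remaining libraries.

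Each OSN chooses 1 olfactory receptor gene, so the cells were also grouped by their leading *Olfr* gene with 3 or more UMIs, which 5056 mature OSNs had. Class I receptors, an older family found mostly in the dorsal epithelium, were taken as the run of 158 *Olfr* genes at chr7:102476773-105369317 (GRCm38), and 530 cells had a class I and 4500 a class II receptor. *Cyp26b1* stood at 54.7 CPM in class I against 14.4 in class II cells of swap replicate 1 and at 38.7 against 14.2 in replicate 2. In control it stood at 38.3 against 13.2 and 49.8 against 17.3 CPM, in tetOP2 at 30.1 against 9.33 and in gg8tTA at 12.6 against 11.9. Class I cells were higher in 6 of 6 libraries, with gg8tTA nearly level.

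**Figure D5:**
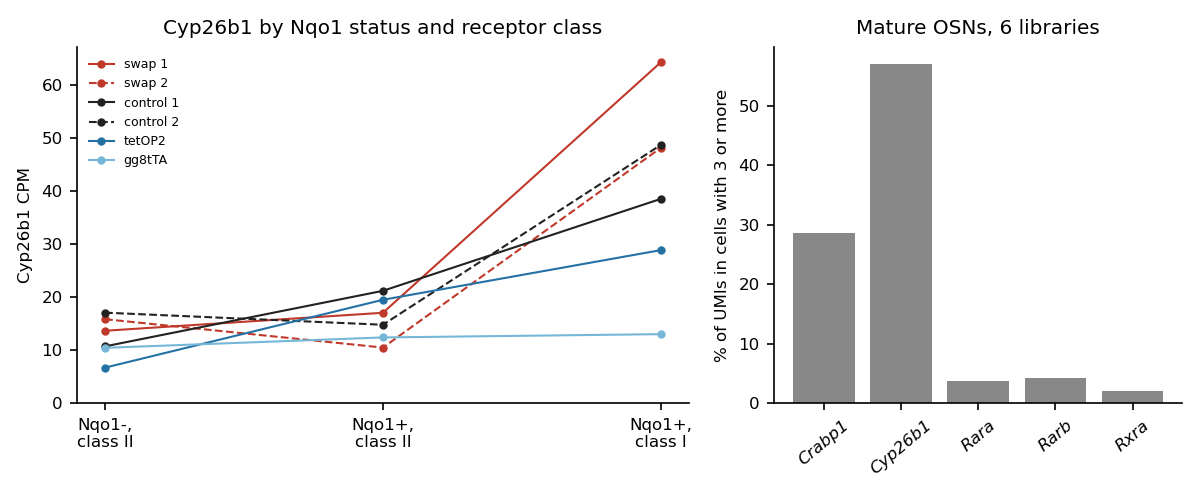
Left, *Cyp26b1* in CPM (vertical axis) in mature OSNs grouped by *Nqo1* status and receptor class (horizontal axis), 1 line for each of the 6 libraries, and right, the percentage of a gene's UMIs in mature OSNs that lie in cells with 3 or more of them, over all 6 libraries. Of the 3 groups plotted, *Nqo1*-positive class I cells have the highest value in each library, and *Cyp26b1* has the tallest bar at 57.1%. *Nqo1*-negative class I cells, 57 over all libraries, are not plotted.

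Within class II cells *Cyp26b1* stood at 15.5 CPM in *Nqo1*-positive and 13.1 in negative cells over all libraries, while positive class I cells had 40.7 CPM. The 57 *Nqo1*-negative class I cells, with 23 UMIs over all libraries, had 32.3 CPM. They were above positive class I cells in control replicate 2 (62.1 against 48.6 CPM, 13 cells) and tetOP2 (55.3 against 28.8, 4 cells). In control replicate 1 and both swap libraries they were below. The class II groups went both ways by library, with positive cells higher in 4 of 6, from 19.5 against 6.66 CPM in tetOP2 and 21.1 against 10.7 in control replicate 1 to 10.4 against 15.8 in swap replicate 2. *Rara* kept its difference within class II cells, with 2.24 against 7.13 CPM. Counts by single receptor rested on few cells. As 491 of 5665 mature OSNs held a *Cyp26b1* UMI, a receptor with few cells can have none without a difference between receptors. No expected number was worked out. Among the 123 receptors with 10 cells or more, 61 had no *Cyp26b1* UMI. *Olfr666*, of class I, had it in 8 of 14 cells (171 CPM) and *Olfr1330*, of class II, in 5 of 10 (155 CPM), while *Olfr1361*, of class II, had it in 0 of 36 cells, of which 34 were *Nqo1*-positive. The 120 cells with 3 or more *Cyp26b1* UMIs and a leading receptor expressed 92 different receptors, at most 5 cells each, and 34 of them were of class I. The *P2* receptor *Olfr17*, which the transgene drives, led in 359 tetOP2 cells that together held 30 *Cyp26b1* UMIs. That library had 576 class II cells, so most of them carried the transgene's receptor, unlike class II cells of the other libraries. The receptors named here were singled out after their values were seen.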

How the data were processed

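The authors dissociated main olfactory epithelium with papain, made libraries with 10X Chromium v3 and deposited raw UMI counts per gene and cell from Cell Ranger with introns included (cellranger 3.1.0 per the matrix headers, mm10 per the submitters' processing notes). Here a cell needed 1000 UMIs and 500 genes, 53 to 207 simulated-neighbour doublets a library were removed, and 83.9% to 94.0% of cells passed a marker gate (mean scaled score of 0.3 or more, 0.1 above the next class, 3 markers detected; GBCs had to meet an added marker rule). The marker gate replaced clustering. Classes with 20 cells or more (10 in the lineage) were summed per library and tested by edgeR 4.0.16 (TMM, filterByExpr, quasi-likelihood) over all genes with Benjamini-Hochberg adjustment. The SE given with edgeR log2 fold changes was not a model output. It was the absolute log2 fold change divided by the square root of the test's F statistic. Lineage and *Nqo1* fits had library as a block, and *Nqo1* itself was left out. The tests were also run on simulated counts with a fixed spread for all genes, not taken from these libraries. That run does not show how they fare at the spread of these libraries. Alternatives were DESeq2 1.42.0, no filter, a stricter gate, 2000 UMIs, other *Nqo1* rules, thinning, a replicate block and leaving out each library. The robust spread, swap and control libraries alone, class II cells alone, the added GBC rule and the receptor grouping were chosen after seeing the data.

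Named were the 9 members, up to 5 called genes of the wider list per comparison by smallest adjusted p, and the 3 genes most like each member. Members and lists were chosen with earlier results of these data known. Intervals and floors (3 UMIs) cover counting error only. Cells are not replicates. The study's methods call the replicates biological, but the labels tie no library to a mouse or preparation, so p-values measure the spread between these libraries, with 2 per group for swap against control. Part of the genotype labels, some genes that the lists or rules hold (counted in the totals) and the study's other assays are not reported here.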

Additional observations from a re-analysis of the deposited data

Results flagged for a closer look

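*Crabp1*, the binding protein of immature OSNs, had a difference by *Nqo1* status that was higher in the swap than in the control libraries. In swap, *Nqo1*-positive mature OSNs had 4.73 against 0.978 CPM in negative cells of replicate 1 (15 against 5 UMIs) and 2.67 against 2.63, nearly level, in replicate 2. In control they had 2.62 against 3.76 and 6.50 against 11.5 CPM, the last pair in replicate 2, where 30 of 1331 mature OSNs held 73.4% of the *Crabp1* UMIs. The interaction term was 1.61 ± 0.62 on the log2 scale (SE, edgeR, unadjusted p = 0.0308, adjusted p = 0.989), so the difference did not pass the correction, and it ran from 0.74 to 2.97 when each library was left out in turn. The tetOP2 and gg8tTA libraries had 31.8 against 28.5 and 35.6 against 29.8 CPM. These 2 libraries also had the highest CPM of sustentacular markers in mature OSNs and the highest *Crabp1* in HBCs. The part of either in this was not tested.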

How the results depend on the processing

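No member called in the comparisons as reported changed direction under any alternative run. Uncalled members with small differences changed sign under some, *Cyp26b1* in mature OSNs, swap against control, going from -0.03 to 0.07 without control replicate 2. In swap against control the count of called members was 0 under every alternative run, in each of the 3 classes, while the count over all genes moved widely between them. In mature OSNs (0 genes) it was 185 with DESeq2, 65 with no filter, 76 with a robust spread and 204 to 241 when each library was left out, where the lone library is assumed to vary like the other group. In immature OSNs (6) it was 89 with DESeq2, 69 with no filter, 10 with a robust spread and 155 to 325 without 1 library, and in sustentacular cells (0) it was 38, 11, 0 and 13 to 289. With the replicate block it was 0, 29 and 1. Genes at an unadjusted p under 0.05 (edgeR) numbered 806, 805 and 524 with the block, against 335, 267 and 155 without it. Swap and control share only a replicate number, which the labels tie to no preparation, so the pairing is not used elsewhere. Yet the deviations of same-numbered libraries correlated positively, at 0.266, 0.347 and 0.571 over 2 pairs. What they shared was not tested, and in the unpaired fits it is part of the spread. In the interaction the replicate number lies within the library block and was not run separately, and its 37 genes became 9 with DESeq2, 65 with no filter and 59 to 107 without 1 library. For *Nqo1* status 1035 genes became 557 with DESeq2, and the 2 called members became 1 when cells were thinned to 3000 UMIs and 1 in class II cells alone, *Cyp26b1* being lost. From GBC to INP the 1 called member became 2 with DESeq2 and 2 with cells of 2000 UMIs, *Aldh1a1* being added at -1.61 and -1.81. The leading class was the same for 9 of 9 members with doublets kept, and for 8 with the stricter gate (too few GBCs for *Crabp2*) and 8 at 2000 UMIs (HBCs and mature OSNs changed places for *Cyp26b1*). The causes were not tested. Depth limits members with few UMIs, such as *Aldh1a1* with 0 to 12, *Crabp2* with 2 to 21 and *Rara* with 3 to 12 UMIs a library in *Nqo1*-positive cells, and the GBC sums, from 10 to 35 cells a library.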
